A study of Mus musculus with 12 samples.

Results

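The genes described here carry water and urea across kidney cells or control those channels: the aquaporins Aqp1, Aqp2, Aqp3, Aqp4, Aqp7 and Aqp11, the urea transporters Slc14a1 and Slc14a2, the vasopressin V2 receptor Avpr2 and the hypertonicity factor Nfat5. The rule that picks them is their name and known function, and it was set with earlier results of these data known. All 10 were found among the 55487 genes of the count table, and all 10 passed the filter on low counts that left 19890 genes for testing. The study took whole mouse kidneys at postnatal day 15 (P15) for RNA sequencing, to compare kidneys after loss of the centriole gene Cep120 with those after loss of Pkd1, which encodes the ciliary protein polycystin-1. Hoxb7-Cre acts in the ureteric bud, the source of the collecting duct, so each gene was targeted in that lineage and not in the nephron segments upstream. The 4 groups of 3 libraries were Hoxb7 Cep120 animals titled homo (Cep120 KO), Hoxb7 Cep120 animals titled het (Cep120 controls), and the same pair of groups for Hoxb7 Pkd1. Both control groups carry WT as their genotype label, so their exact alleles are uncertain, and the sources used here do not describe the deleted alleles. Nothing in the labels says whether each library is its own animal, so p-values measure the spread between libraries only.

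Antidiuresis works as a chain of these genes. Vasopressin binds Avpr2 on the blood side of principal cells of the collecting duct, cyclic AMP rises through a stimulatory G protein, and protein kinase A sends vesicles loaded with Aqp2 to the urine side and, over hours, raises transcription of Aqp2. Water that enters through Aqp2 leaves through Aqp3 and Aqp4 in the basolateral membrane. Slc14a2 gives the UT-A urea transporters of the inner medullary collecting duct and the thin descending limb, and Slc14a1 gives UT-B of the descending vasa recta and of red blood cells. Aqp1 is the constitutive water channel of the proximal tubule and thin descending limb, Aqp7 is a water and glycerol channel of the straight proximal tubule, and Aqp11 lies inside proximal tubule cells, where its loss in mice causes cysts. Nfat5 is the transcription factor by which cells answer high salt around them, and its known targets include Slc14a2 and the genes of organic osmolyte uptake.

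The bases before the start site are shown for 3 members that were higher in Pkd1 KO (Aqp2, Aqp3 and Avpr2) and 1 that was lower (Aqp11), since the data bear on whether genes that move together look alike there. They are RefSeq promoters on GRCm38.p6, 250 bases each, written 5′ to 3′ on the strand of the gene, at chr15:99578806-99579055 (plus strand) for Aqp2, chr4:41098184-41098433 (minus strand) for Aqp3, chrX:73891852-73892101 (plus strand) for Avpr2 and chr7:97738248-97738497 (minus strand) for Aqp11. Capitals mark the cyclic AMP response element half-site TGACG, the GATA motif AGATAA and the TATA box TATAAA, on either strand.
Aqp2: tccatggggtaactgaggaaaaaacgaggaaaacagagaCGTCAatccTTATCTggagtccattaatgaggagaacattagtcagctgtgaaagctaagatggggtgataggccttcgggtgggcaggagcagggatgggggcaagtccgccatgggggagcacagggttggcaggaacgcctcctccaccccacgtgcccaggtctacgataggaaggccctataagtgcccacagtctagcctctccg
Aqp3: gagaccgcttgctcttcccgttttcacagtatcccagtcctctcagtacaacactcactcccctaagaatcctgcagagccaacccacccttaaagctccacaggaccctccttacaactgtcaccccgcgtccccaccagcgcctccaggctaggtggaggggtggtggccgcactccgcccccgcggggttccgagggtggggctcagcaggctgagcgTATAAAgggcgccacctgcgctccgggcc
Avpr2: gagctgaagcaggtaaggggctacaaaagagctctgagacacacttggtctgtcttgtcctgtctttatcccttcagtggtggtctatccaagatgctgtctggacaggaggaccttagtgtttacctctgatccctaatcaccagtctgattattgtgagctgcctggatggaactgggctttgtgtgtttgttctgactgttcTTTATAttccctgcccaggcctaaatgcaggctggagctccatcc
Aqp11: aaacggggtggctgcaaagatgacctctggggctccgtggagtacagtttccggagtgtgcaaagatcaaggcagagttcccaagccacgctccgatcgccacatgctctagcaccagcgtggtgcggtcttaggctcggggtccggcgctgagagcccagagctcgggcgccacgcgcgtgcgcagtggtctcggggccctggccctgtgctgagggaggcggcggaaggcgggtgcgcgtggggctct

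Aqp2 was the only 1 of these 4 with a half-site (bases -211 to -207 from the start site, minus strand) and with AGATAA (bases -202 to -197, minus strand), and the spacing left 4 bases between them. Aqp3 held TATAAA at bases -29 to -24, Avpr2 held it only on the reverse strand at bases -45 to -40, and Aqp11 held none of the 3 motifs. Over 32851 promoters of 300 bases (250 before the start and 50 after it), 20.8% held the half-site, 11.2% AGATAA and 13.6% TATAAA. The whole element TGACGTCA, in 1.79% of promoters, was in none of the 8 promoters found for 7 of the 10 members. The ETS motif AGGAAG, in 35.4% of promoters, occurred 3 times in the 300 bases of Aqp2, at -38, 10 and 41. Other forms of the ETS motif were not counted. The same motif was also in the promoters of Aqp1, at -29, and Nfat5, at -131. Nfat5 also held the half-site, at bases 36 to 40 on the minus strand, and Aqp7 held AGATAA, at -132. None of these genes rose in Pkd1 KO. These are letter matches in a short window and do not show binding.

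The libraries held 23070736 to 31837973 counts. The targeted genes do not check the labels: in CPM, counts scaled to library size, Cep120 was at 17.9 ± 2.16 (SD, n = 3) where the label was Cep120 KO and at 16.2 ± 2.505 in the controls. Pkd1 was at 28.8 ± 6.69 CPM where the label was Pkd1 KO and at 17.2 ± 3.998 CPM in the controls, a rise and not a loss. Genes with a count numbered 30321 to 32740 in 6 libraries (all Cep120 KO, Cep120 controls 1 and 2, Pkd1 control 3) and 23544 to 25665 in the other 6. Xist, which the inactive X transcribes, stayed below 1 CPM in every Pkd1 KO library and in Cep120 KO 1 and 2, and exceeded it in every Pkd1 control. Xist presence and the KO label therefore cannot be told apart within the Pkd1 line. Sex was less clear, as Pkd1 control 3 held Y-linked RNA beside Xist. Y-linked RNA was at 146.7, 135.3 and 144.4 CPM in Pkd1 KO 1 to 3. In Pkd1 controls 1 to 3 it was at 0.0651, 0.0502 and 96.9 CPM. Of these controls, control 3 was the furthest from the KO libraries for Avpr2, Aqp3, Aqp4 and Slc14a2. It was the nearest to them for Aqp1, Aqp2, Aqp7 and Aqp11. The part of sex in these levels was not tested. In 4 libraries (Cep120 KO 3, Cep120 controls 1 and 2, Pkd1 control 3) both Xist and Y-linked RNA of 12.01 to 96.9 CPM were found. Within groups, Cep120 controls 1 and 2 were the closest pair, with a chi-square per gene of 5.80, where the other pairs had 28.3 to 76.5.

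In the libraries labelled Pkd1 KO, the vasopressin receptor gene and the principal cell water channels rose. Avpr2, Aqp2, Aqp3, Aqp4 and the urea transporter Slc14a2, mostly as its short form, were 2.75 to 5.68 times their control level, and the nephron aquaporins Aqp1, Aqp7 and Aqp11 fell by 2.10 to 4.01 times. Slc14a1 and Nfat5 did not pass the test. By edgeR's quasi-likelihood test with Benjamini-Hochberg adjustment at 0.05, 8 of 10 members were called, 5 higher and 3 lower. Of all genes tested 44.4% were called in that comparison, 22.1% higher and 22.4% lower, so a call alone sets no member apart. Of all genes 9.90% rose and 13.2% fell at least 2-fold, and each of the 8 members called passed that size. The same 8 were those whose Pkd1 KO and control libraries did not overlap, as 27.4% of all genes did with KO higher and 25.5% with KO lower. The median log2 fold change of the members was 0.61, and that of all genes was -0.04.

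Avpr2 (ENSMUSG00000031390), the receptor at the head of the chain, was at 84.7, 89.5 and 141 CPM in Pkd1 KO 1 to 3 and at 39.8, 35.6 and 31.3 CPM in Pkd1 controls 1 to 3. Every Pkd1 KO library was more than 2 times as high as any control. The log2 fold change was 1.56 (SE 0.19, edgeR adjusted p = 3.98e-05). In the Cep120 line the level was 37.2, 38.8 and 29.0 CPM in KO and 35.1, 42.5 and 40.2 CPM in control libraries, and the groups overlapped. Avpr2 overlaps Arhgap4 in the RefSeq annotation, and whether counting used the strand is not stated, so its counts are uncertain. Arhgap4, named here after its values were seen, was at 16.9 ± 5.59 CPM in Pkd1 KO and 6.44 ± 1.32 CPM in the controls, a rise of 1.39 on the log2 scale (SE 0.26, adjusted p = 0.000907).

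Aqp2 (ENSMUSG00000023013), the channel that vasopressin moves, had both the largest mean fold change and the widest spread of the members in the Pkd1 line. It was at 572, 1404 and 1749 CPM in Pkd1 KO 1 to 3 and at 256, 41.8 and 357 CPM in Pkd1 controls 1 to 3. The groups did not overlap, and Pkd1 control 2 stood far below the others. The log2 fold change was 2.51 (SE 0.65, adjusted p = 0.00729, 5.68-fold). With Xist presence as a term, which varies within a group only in Cep120 KO, it was 0.95 (SE 1.03, adjusted p = 0.594) and no longer passed. Cep120 KO 1 and 2, which lacked Xist, were at 255 and 183 CPM of Aqp2, and Cep120 KO 3, which had it, was at 74.6 CPM. Cep120 controls were at 182, 166 and 224 CPM, so the Cep120 KO libraries bracketed all of their controls.

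The fold changes of the basolateral exits had smaller SEs than that of Aqp2. Aqp3 (ENSMUSG00000028435), which also passes glycerol, was at 642, 615 and 984 CPM in Pkd1 KO 1 to 3 and at 289.9, 292 and 232 CPM in the controls. Its log2 fold change was 1.46 (SE 0.19, adjusted p = 5.72e-05), and every KO library was more than 2 times as high as any control. Aqp4 (ENSMUSG00000024411), which carries water alone, was at 117, 129 and 298 CPM in Pkd1 KO and at 55.5, 44.4 and 36.3 CPM in the controls. Pkd1 KO 3 had more than 2 times the Aqp4 of the other KO libraries, and the groups did not overlap. The log2 fold change of Aqp4 was 1.997 (SE 0.35, adjusted p = 0.000578). Pkd1 KO 3 was the highest library for all 4 of Avpr2, Aqp2, Aqp3 and Aqp4.

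**Figure D1:**
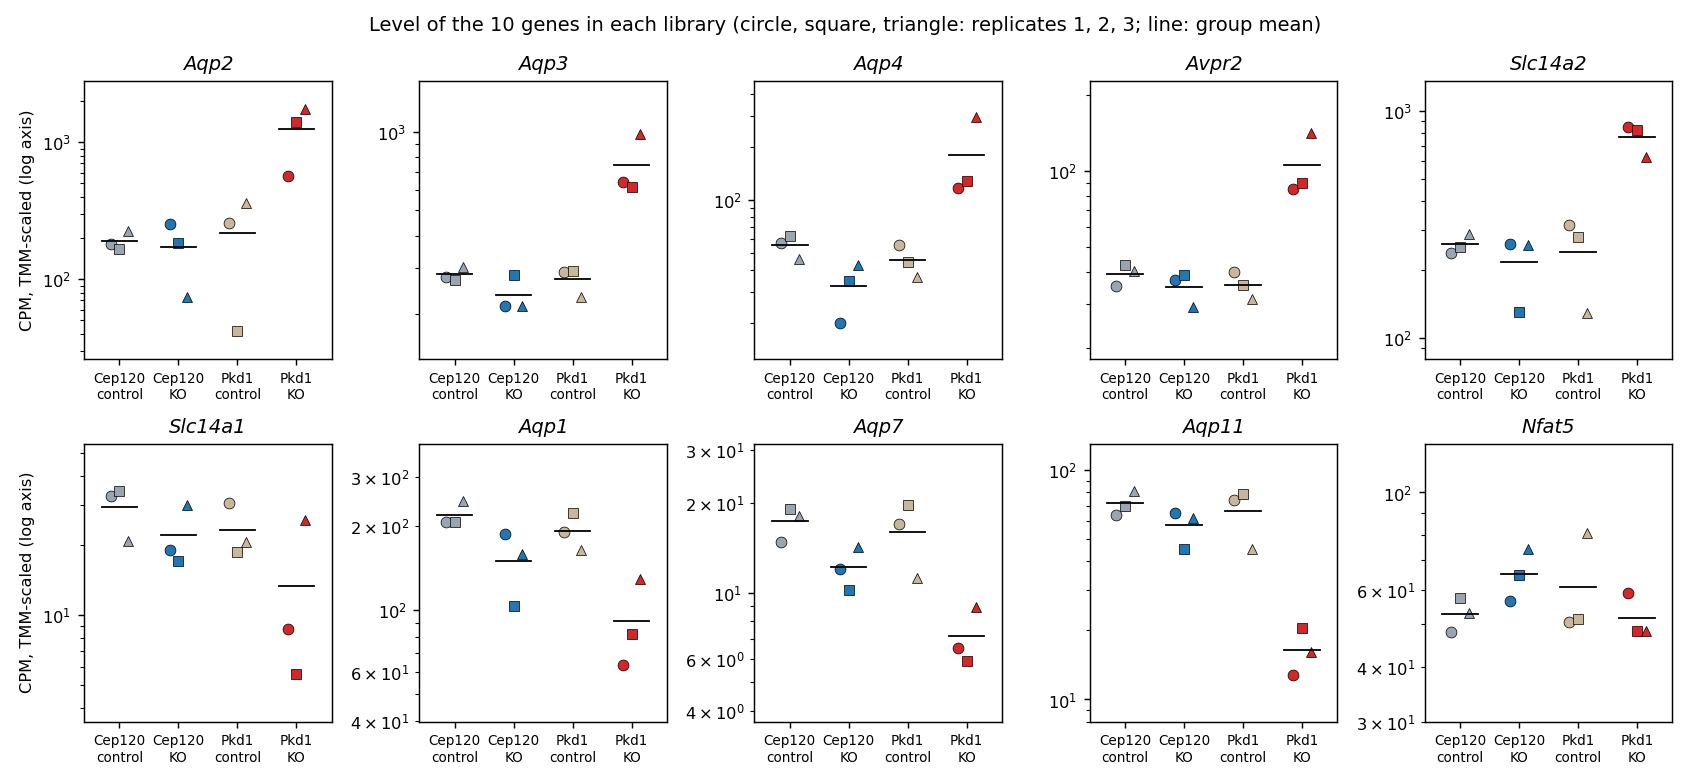
Level of each gene in each of the 12 libraries, in TMM-scaled CPM on a log axis whose range differs between panels, with a line at the mean of each group of 3. The Pkd1 KO points lie above all Pkd1 controls for Aqp2, Aqp3, Aqp4, Avpr2 and Slc14a2 and below them for Aqp1, Aqp7 and Aqp11, while those of Slc14a1 and Nfat5 overlap.

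The urea transporters, neighbours on the same chromosome, did not share a pattern. Slc14a2 (ENSMUSG00000024552) was at 848, 824 and 627 CPM in Pkd1 KO 1 to 3 and at 314, 277 and 129 CPM in the controls. All KO libraries lay above all controls, and the log2 fold change was 1.68 (SE 0.31, adjusted p = 0.000915, 3.19-fold). Slc14a1 (ENSMUSG00000059336) was at 8.77, 5.57 and 25.8 CPM in Pkd1 KO and at 30.6, 18.8 and 20.7 CPM in the controls. Here Pkd1 KO 1 and 2 were below every control and Pkd1 KO 3 was among them. The log2 fold change of Slc14a1 was -0.81 (SE 0.44, adjusted p = 0.154, interval -1.77 to 0.15), and without Pkd1 KO 3 it was -1.72 (adjusted p = 0.00152). The ratio of Slc14a2 to Slc14a1 in TPM, a level scaled to transcript length and library size, was 106, 169 and 25.9 in Pkd1 KO 1 to 3 and 7.05 to 16.5 in the controls.

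Most of the Slc14a2 signal came from 1 short transcript. Slc14a2-205, whose coding sequence in GENCODE M21 spans 397 residues, the length of UT-A2 of the thin descending limb, held 92.9% to 99.3% of the gene's TPM in every library. Its level was 357, 327 and 259 TPM in Pkd1 KO 1 to 3 and 116, 83.0 and 52.1 TPM in the controls. Slc14a2-206, with 930 residues, the length of UT-A1 of the inner medullary collecting duct, was at 0.101, 0.226 and 0.283 TPM in Pkd1 KO and at 2.29, 1.35 and 1.14 TPM in the controls. The long form was thus lower in every Pkd1 KO library than in any Pkd1 control, while the short form was higher in every one. The other coding forms did not follow the long one. Slc14a2-203, with 461 residues, was at 0.874, 1.55 and 2.55 TPM in Pkd1 KO and at 2.34, 1.32 and 0.751 TPM in the controls, which overlapped. Slc14a2-202, with 323 residues, was at 5.70, 4.77 and 3.57 TPM in Pkd1 KO and at 0 to 0.532 TPM in the controls. In the Cep120 line the long form was at 0, 1.08 and 4.08 TPM in KO and at 1.58, 3.39 and 1.79 TPM in control libraries. These shares are the authors' estimates from reads that the forms have in common, were not tested, and carry no counts here.

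Aqp1 (ENSMUSG00000004655), the proximal and thin limb channel, was at 63.7, 82.5 and 129 CPM in Pkd1 KO and at 190.2, 223 and 164 CPM in the controls. The groups did not overlap, and the log2 fold change was -1.07 (SE 0.25, adjusted p = 0.00444). Aqp7 (ENSMUSG00000028427), the glycerol channel of the straight proximal tubule, was at 6.50, 5.90 and 8.97 CPM in Pkd1 KO and at 16.9, 19.7 and 11.2 CPM in the controls, with the groups apart and a change of -1.16 on the log2 scale (SE 0.23, adjusted p = 0.00116). With Xist presence as a term these became -0.94 (adjusted p = 0.242) for Aqp1 and -0.80 (adjusted p = 0.235) for Aqp7, and neither passed. Aqp11 (ENSMUSG00000042797), the intracellular channel, was at 12.8, 20.5 and 16.1 CPM in Pkd1 KO and at 74.1, 79.02 and 45.1 CPM in the controls. Its log2 fold change was -2.004 (SE 0.23, adjusted p = 2.48e-05), and no KO library reached the level of any control. Aqp3 and Aqp7 are adjacent coding genes on chromosome 4 in RefSeq, and they moved in opposite directions.

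Nfat5 (ENSMUSG00000003847) did not follow the channels. It was at 58.9, 48.3 and 48.2 CPM in Pkd1 KO and at 50.6, 51.5 and 80.7 CPM in the controls, with Pkd1 control 3 far above the rest. The log2 fold change was -0.23 (SE 0.18, adjusted p = 0.298, interval -0.62 to 0.15). That interval leaves out a change of 2-fold in either direction.

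In the Cep120 line no member was called (0 of 10), and neither was any other gene (0% of 19890), although 1201 genes had an unadjusted p under 0.05. Voom called 0 members and 0% of genes, and DESeq2 called 0 members and 0.106% of genes. With no filter on low counts edgeR called Aqp1 and Aqp4 (0.816% of genes). Of the members 9 had a log2 fold change below 0 and 1, Nfat5, above it, with a median of -0.29 against 0.01 for all genes. Aqp1, Aqp4 and Aqp7 were lower in every Cep120 KO library than in any Cep120 control, a separation that 7.88% of all genes showed in that direction and 8.64% in the other, and these were the members with an unadjusted p under 0.05. Adipose markers also summed lower without overlap, to 151 to 369 CPM in Cep120 KO and 383 to 427 CPM in the controls, and intercalated cell markers to 296 to 423 CPM and 458 to 535 CPM. Most of the adipose sum was Fabp4, at 149 to 338 CPM in KO and 357 to 387 CPM in control libraries. Adipoq, Plin1, Cidec and Lep overlapped between the groups, and Retn did not. All 8 intercalated and all 7 thick ascending limb markers had a log2 fold change below 0. None of these markers was called, and their part in the levels of Aqp1, Aqp4 and Aqp7 was not tested. Aqp4 was at 19.96, 34.6 and 42.9 CPM in Cep120 KO 1 to 3 and at 56.7, 62.9 and 46.2 CPM in the controls (log2 fold change -0.77, SE 0.34, edgeR adjusted p = 0.757). Aqp1 was at 188, 103 and 159 CPM in KO and at 207, 207 and 247 CPM in control libraries (-0.56, SE 0.25, adjusted p = 0.757). Aqp7 was at 11.96, 10.2 and 14.3 CPM in KO and at 14.7, 19.1 and 18.1 CPM in control libraries (-0.51, SE 0.22, adjusted p = 0.757).

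Among the other members, Aqp3 was at 215, 282 and 214 CPM in Cep120 KO 1 to 3 and at 277, 271 and 302 CPM in the controls. Aqp11 was at 65.3, 45.4 and 61.9 CPM in KO and at 63.7, 69.9 and 81.4 CPM in control libraries. Slc14a1 was at 19.2, 17.2 and 29.96 CPM in KO and at 32.7, 34.3 and 21.0 CPM in control libraries. For each of these the groups overlapped. Nfat5 was at 56.5, 65.0 and 74.4 CPM in KO and at 48.0, 57.5 and 53.0 CPM in control libraries, an overlap by 1 library only. The interval of the log2 fold change was -0.57 to 0.24 for Avpr2, -0.66 to 0.14 for Aqp3, -0.80 to 0.16 for Aqp11, -0.93 to 0.40 for Slc14a2 and -0.08 to 0.69 for Nfat5. A rise of the size seen in Pkd1 KO lay outside the interval for Avpr2, Aqp2, Aqp3 and Slc14a2. It also did so for Aqp4 (interval -1.51 to -0.03, not adjusted for the number of genes). For Aqp2 (-0.16, interval -1.49 to 1.17) and Slc14a1 (-0.41, interval -1.36 to 0.54) a 2-fold change in at least 1 direction was within it. Slc14a2 was at 258, 129 and 258 CPM in Cep120 KO and at 238, 252 and 286 CPM in the controls, so its 1 low library was Cep120 KO 2. The control groups of the lines were also compared with each other, and 0 of 10 members and 0% of genes were called, with 834 genes at an unadjusted p under 0.05 and none of the members among them.

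The difference between the Pkd1 and Cep120 effects was tested as an interaction. It was called for 6 of 10 members, 5 higher in the Pkd1 line and 1 lower, where 28.1% of all genes were called (13.9% higher and 14.2% lower). Aqp4 differed most, by 2.76 log2 units (SE 0.49, adjusted p = 0.00148 by edgeR). Slc14a2 differed by 1.94 (SE 0.44, adjusted p = 0.00621), Avpr2 by 1.73 (SE 0.27, adjusted p = 0.000625) and Aqp3 by 1.72 (SE 0.26, adjusted p = 0.000574). Aqp11 differed by -1.69 (SE 0.32, adjusted p = 0.00212). The difference of Aqp2, 2.66 (SE 0.88, adjusted p = 0.0398), lost its call in 8 of the 12 fits that leave out 1 library, where it ranged from 2.18 to 3.19, and with Xist presence as a term (2.31, adjusted p = 0.0865, with 21.4% of genes called). For Aqp1 (-0.51, adjusted p = 0.295) and Aqp7 (-0.65, adjusted p = 0.137) the lines were not shown to differ, but Aqp7 passed without Pkd1 control 3 (-0.87, adjusted p = 0.0309), without both replicate 3 controls (-0.89, adjusted p = 0.0417) and with a term for the detected-gene class (-0.88, adjusted p = 0.0439). Slc14a1 passed only without Pkd1 KO 3 (-1.31, adjusted p = 0.0397). The genes detected split the libraries, so the fit was repeated without both replicate 3 controls, which leaves each comparison within 1 class of libraries. The same 8 members were called there for Pkd1 (44.4% of genes), with Aqp2 at 3.06 and Slc14a2 at 1.37, and 0 for Cep120. With Xist presence as a term 5 of 10 were called for Pkd1 (10.1% of genes): Aqp3, Aqp4, Aqp11, Avpr2 and Slc14a2.

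**Figure D2:**
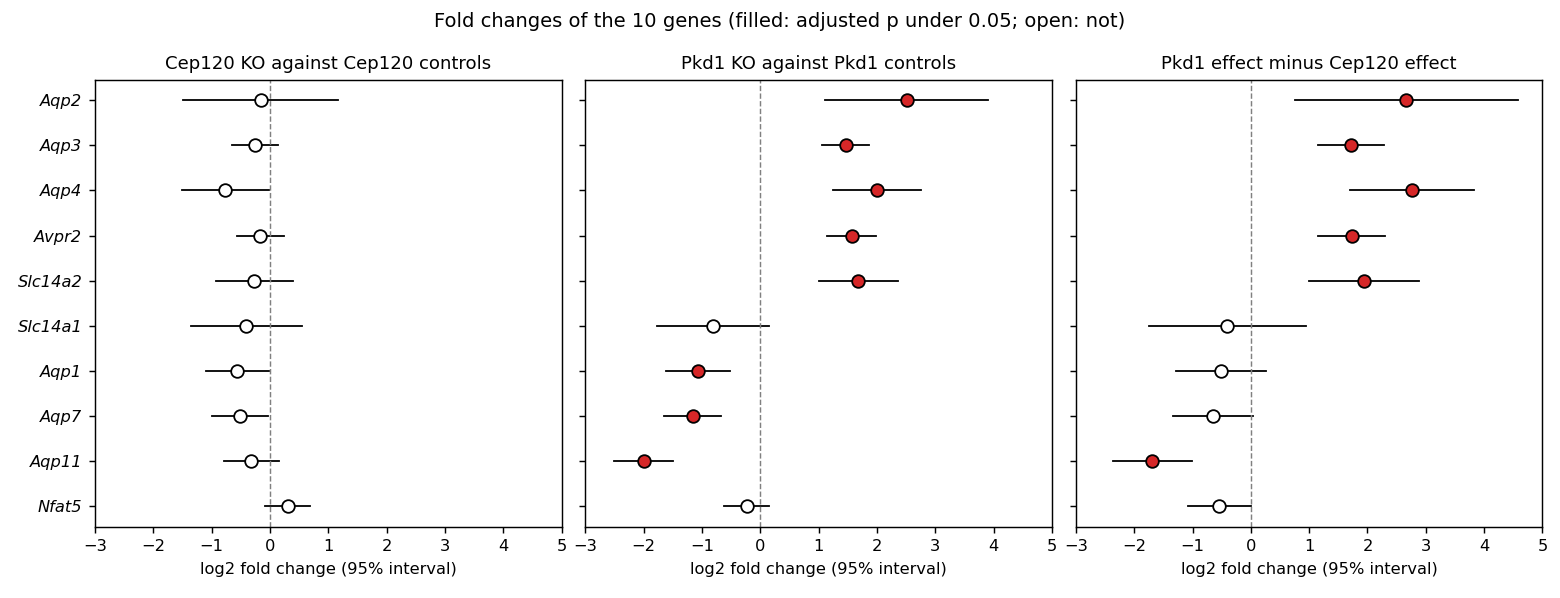
Log2 fold changes with 95% intervals for the Cep120 comparison, the Pkd1 comparison and the difference between them, filled where the adjusted p was under 0.05. No point is filled for Cep120, 8 are for Pkd1 and 6 are for the difference.

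Per transcript length, Aqp2 and Aqp3 had the highest means of the members in every group. In the Cep120 controls Aqp3 led at 192 ± 4.40 TPM (SD, n = 3), followed by Aqp2 at 174 ± 15.6, Slc14a2 at 96.9 ± 4.02 and Aqp1 at 89.5 ± 2.94. The ranges of Aqp3 and Aqp2 overlapped, as did those of Slc14a2 and Aqp1. In the Pkd1 controls the order was Aqp2 at 227 ± 184 TPM, Aqp3 at 183 ± 19.3, Slc14a2 at 88.4 ± 33.2 and Aqp1 at 78.6 ± 2.31, and Aqp2 overlapped Aqp3 there too. In Pkd1 KO the order was Aqp2 at 1332 ± 629 TPM, Aqp3 at 588 ± 172, Slc14a2 at 334 ± 51.0, Aqp4 at 102 ± 58.7, Avpr2 at 73.9 ± 23.1 and Aqp1 at 43.3 ± 16.3. Aqp2 and Aqp3 overlapped there, as did Aqp4 with Avpr2 and Avpr2 with Aqp1, while Aqp3 lay above Slc14a2 and Slc14a2 above Aqp4 without overlap. Aqp4 and Avpr2, below Aqp1 and Aqp11 in both control groups, were above Aqp11 in every Pkd1 KO library. Aqp7 was the lowest member in Pkd1 KO, at 4.20 ± 1.08 TPM, with a range that overlapped that of Slc14a1.

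Aqp3 kept a near constant ratio to the receptor. The ratio of Aqp3 to Avpr2 in TPM lay between 6.48 and 9.07 in all 12 libraries, across a range of Avpr2 from 18.4 to 101 TPM. The ratio of Aqp2 to Aqp3 ran from 0.199 in Pkd1 control 2 to 3.11 in Pkd1 KO 2. Within Pkd1 KO it was 1.27, 3.11 and 2.41, and within Cep120 KO 1.603, 0.903 and 0.494. Within each KO group and the Pkd1 controls it thus ranged more widely than the ratio of Aqp3 to Avpr2 did.

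In whole kidney, fewer cells of a type and less RNA per cell cannot be told apart, so the members were set beside markers of their cells. A list of 7 principal cell markers, with Scnn1b and Scnn1g of the sodium channel among them, summed to 1807 to 2126 CPM in Pkd1 KO and 811 to 1014 CPM in the controls. Most of each sum was Npnt, at 983 to 1229 CPM in Pkd1 KO and 517 to 689 CPM in the controls. Of the 7 markers 6 were higher and 1, Hsd11b2, was lower. Hsd11b2 inactivates glucocorticoids and is singled out here after its values were seen. Relative to the mean of that list in the same library, Aqp3 was at 2.46 ± 0.27 on the log2 scale in Pkd1 KO and 2.27 ± 0.11 in the controls, and Avpr2 at -0.37 ± 0.31 and -0.66 ± 0.11. Both differences were smaller than the larger of the SDs. Aqp4 was at 0.32 ± 0.64 against -0.32 ± 0.25 and Aqp2 at 3.08 ± 0.83 against 1.49 ± 1.72, and for both the groups overlapped. In the Cep120 line the principal cell sum was 797 to 874 CPM in KO and 899 to 979 CPM in control libraries, without overlap. Of the 7 markers 0 were called there, and 6 had a log2 fold change below 0. Relative to the list Aqp4 was at -0.71 ± 0.49 in Cep120 KO and -0.13 ± 0.22 in the controls. The groups were barely apart, with Cep120 KO 3 at -0.376 and Cep120 control 3 at -0.350, and Cep120 KO 1 was lowest at -1.27.

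The nephron aquaporins fell in Pkd1 KO, as the markers of their cells did. A list of 9 proximal tubule markers, the phosphate transporter gene Slc34a1 and the glucose transporter gene Slc5a2 among them, summed to 466 to 681 CPM in Pkd1 KO and 4618 to 7396 CPM in the controls, and all 9 fell (median log2 fold change -2.96). Aqp1, Aqp7 and Aqp11 fell less. Relative to the list mean Aqp1 was at 1.0004 ± 0.32 in Pkd1 KO and -1.10 ± 0.16 in the controls, Aqp7 at -2.63 ± 0.36 and -4.71 ± 0.24, and Aqp11 at -1.44 ± 0.19 and -2.67 ± 0.24. The groups did not overlap for any of these 3. That list itself fell, so a gene that fell less, or did not change, can lie higher relative to it. How many of all genes did so was not counted. In the Cep120 line the same 3 lay lower relative to that list in every KO library than in any control. Aqp1 was at -1.47 ± 0.39 in Cep120 KO and -0.88 ± 0.07 in the controls, Aqp7 at -5.05 ± 0.22 and -4.54 ± 0.17, and Aqp11 at -2.82 ± 0.23 and -2.498 ± 0.02. How many of all genes were apart relative to the list was not counted here either. In plain CPM 7.88% of all genes were lower in Cep120 KO without overlap, and Aqp11 was not among them. Slc14a2 was set beside 5 thin limb markers, which summed to 67.5 to 84.2 CPM in Pkd1 KO and 85.8 to 172 CPM in the controls, with 2 higher, 2 lower and 1 not called. Relative to their mean it was at 6.42 ± 0.45 in Pkd1 KO and 4.11 ± 0.35 in the controls, again without overlap. How many of all genes were apart in this way was not counted. That mean includes Sptssb, singled out after its values were seen and not called. Sptssb was at 10.7, 0.129 and 0.395 CPM in Pkd1 KO 1 to 3 and 11.6 to 19.7 CPM in the controls. Its part in the difference was not tested.

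**Figure D3:**
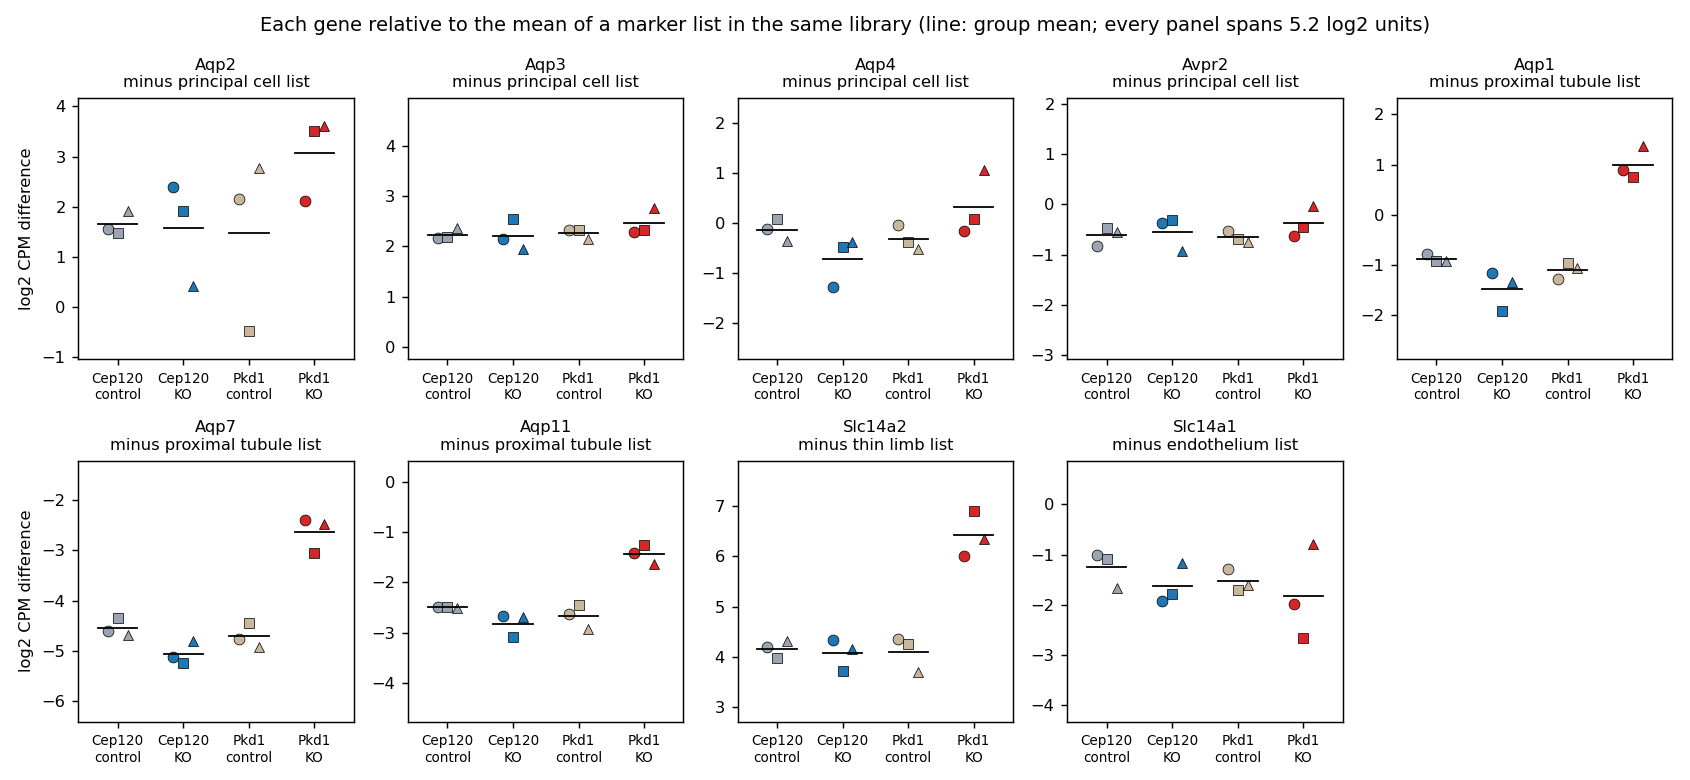
Log2 CPM of each member minus the mean log2 CPM of a marker list in the same library, by group, with a line at each group mean. Aqp3 and Avpr2 stay within about the same range in all groups, and Aqp1, Aqp7, Aqp11 and Slc14a2 lie higher relative to their lists in all 3 Pkd1 KO libraries.

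Markers of some other tissues, but not all, differed between the Pkd1 groups too. Endothelial markers summed to 323 to 397 CPM in Pkd1 KO and 559 to 661 CPM in the controls, with 7 of 8 lower, and red blood cell markers to 490.3 to 1452 CPM and 5991 to 10468 CPM, with 6 of 8 lower. Slc14a1 is expressed in both, and relative to the endothelial list it was at -1.99, -2.67 and -0.79 in Pkd1 KO and -1.71 to -1.28 in the controls. Aqp1 and Aqp7 are also made outside the nephron, in endothelium and red blood cells and in fat. Adipose markers summed to 562, 50.3 and 335 CPM in Pkd1 KO 1 to 3 and 235 to 592 CPM in the controls, with 2 of 6 higher. Aqp3 is made in urothelium, whose markers summed to 333, 48.7 and 77.1 CPM in Pkd1 KO 1 to 3 and 137 to 252 CPM in the controls, with 0 of 7 called. Intercalated cell markers summed to 461 to 523 CPM in Pkd1 KO and 294 to 529 CPM in the controls, with 2 higher and 5 lower of 8. Thick ascending limb markers summed to 1015 to 1584 CPM and 2659 to 3858 CPM, with 5 of 7 lower. Of 7 skeletal muscle markers 3 were tested, and 1 was higher. The part of these tissues in the results was not tested.

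The steps between receptor and channel were read from lists chosen for their role. Levels of the listed genes are those of whole kidney, not of principal cells alone. Markers of other segments changed as well, with a median log2 fold change of -2.96 for proximal tubule and -1.37 for thick ascending limb. The cells behind each change were not tested. Of 15 genes of vasopressin and cyclic AMP signalling, 2 were higher, 3 lower and 10 not called in Pkd1 KO, and the median change was -0.0015 on the log2 scale. That count is to be read against the 44.4% of all genes called, 22.1% higher and 22.4% lower, and so are those of the lists that follow. Gnas, the stimulatory G protein, fell by 0.75 on the log2 scale (SE 0.14, adjusted p = 0.000995). Pde4b, a phosphodiesterase that breaks down cyclic AMP, rose by 0.89 (SE 0.13, adjusted p = 0.000133), and Arrb2, an arrestin that takes up activated receptors, rose by 1.18 (SE 0.19, adjusted p = 0.000336). Of 14 genes of Aqp2 vesicle traffic, 1 was higher, 5 lower and 8 not called, with a median of -0.19. Mal, a protein of apical membrane carriers, rose by 1.27 (SE 0.12, adjusted p = 5.38e-06). Rdx, which ties membrane to actin, had a log2 fold change of -0.50 and Akap11, a kinase anchor, one of -0.63, and both fell (adjusted p = 0.00295 and 0.00305).

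Of 11 transcription factors known to act at Aqp2 or in the principal cell, 8 were higher, 0 lower and 3 not called, with a median of 1.41 against -0.04 for all genes. The ETS factor Elf3 rose by 2.87 (SE 0.19, adjusted p = 6.39e-07), Gata3 by 1.91 (SE 0.15, adjusted p = 2.20e-06) and the ETS factor Ehf by 1.53 (SE 0.16, adjusted p = 1.24e-05). Of the 11, Elf5 and Gata3 are also on the principal cell list. Of 8 genes whose products oppose vasopressin, 2 were higher, 3 lower and 3 not called (median 0.26). Edn1, endothelin-1, rose by 2.38 (SE 0.28, adjusted p = 3.27e-05), Ptger3, a prostaglandin E2 receptor coupled to an inhibitory G protein, changed by -1.85 (SE 0.20, adjusted p = 1.84e-05), and Casr, the calcium-sensing receptor, one of -1.16 (SE 0.21, adjusted p = 0.000719).

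Some genes of the hypertonicity response, but not all, were called where Nfat5 was not. Of 11, 6 were higher, 1 lower and 4 not called, with a median of 0.90. Pnpla6, which frees the osmolyte glycerophosphocholine, rose by 0.96 (SE 0.12, adjusted p = 4.60e-05), the amino acid transporter Slc38a2 by 0.98 (SE 0.13, adjusted p = 9.59e-05) and the taurine transporter Slc6a6 by 0.90 (SE 0.14, adjusted p = 0.000209). The 1 that fell was Slc5a3, the inositol transporter, with a log2 fold change of -0.93 (adjusted p = 0.000775), named after its values were seen. Among the 4 not called were Akr1b3 (-0.29, edgeR adjusted p = 0.620) and Slc6a12 (0.31, adjusted p = 0.540), also named after their values were seen. Of 6 other aquaporins 2 were tested. Aqp5, the coding gene next to Aqp2, rose from 0.395 to 2.23 CPM on average (log2 fold change 2.505, SE 0.62, adjusted p = 0.00584), and Aqp6, of intercalated cells, was not called (-0.47, adjusted p = 0.253). In Cep120 KO no gene of any of these lists was called.

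**Figure D4:**
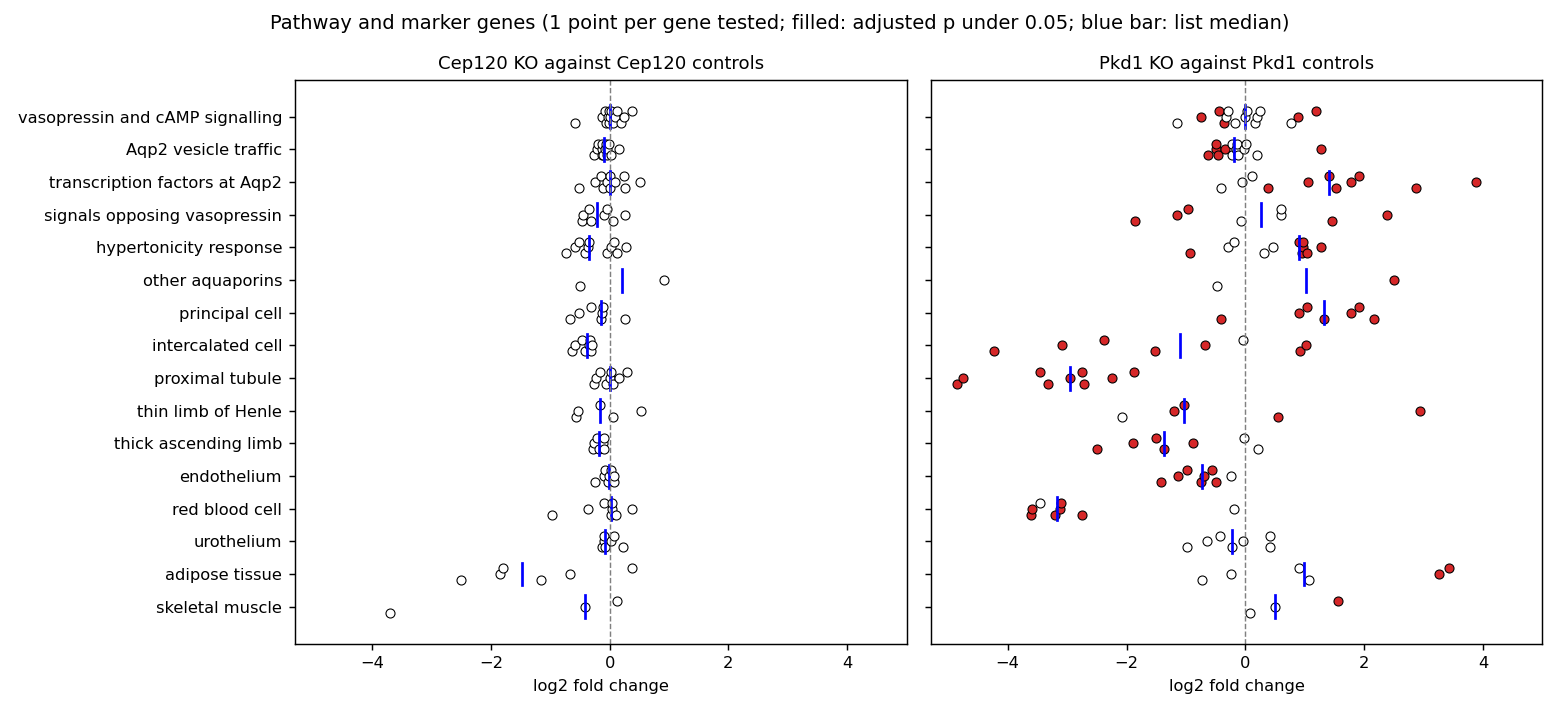
Log2 fold change of each tested gene of the pathway and marker lists in the Cep120 and Pkd1 comparisons, filled where the adjusted p was under 0.05, with a blue bar at the list median. All Cep120 points are open, and in Pkd1 KO the transcription factor list has its median at 1.41 and the proximal tubule list at -2.96.

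The genes most like each member were read from Pearson's r of log2 CPM over the 12 libraries, among 12583 genes. The libraries share depth and scaling, and Pkd1 KO stood apart for 8 members, so r mixes the distance between groups with that within them. Aqp3 was most like Efemp1 (r = 0.990), and Avpr2 most like Cyb561 (0.985) and then Aqp3 itself (0.982). Aqp2 was nearest to Fam89b (0.962) and to Dusp1 (0.961), and Aqp4 to Irs3 (0.967) and Eps8l1 (0.956). Slc14a2 was nearest to Paqr5 (0.976) and to Rhcg (0.967), an ammonia channel of the distal nephron and collecting duct. Slc14a1 was most like Cd34 (0.928) and Adgrf5 (0.923), both of which mark endothelium. Aqp11 was nearest to Msra and Aadac (both 0.996), Aqp1 to Tmem42 (0.970) and Serpina6 (0.966), and Aqp7 to Gcsh (0.979) and Mgme1 (0.971). Nfat5 had the weakest match, with Hook3 (0.904) and Tasor (0.902).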

How the data were processed

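RNA-seq of 12 whole-kidney libraries was used. The submitters' processing notes name Salmon 0.8.2, STAR 2.5.1a, featureCounts 1.4.6-p5 of Subread, bcl2fastq and mm9, but not which tool made which table. Per the labels' protocols, a SMARTer Ultra Low kit was used for cDNA. The authors deposited estimated counts per gene, of which 21.6% of genes have values that are not whole, TPM values per gene and per transcript, and moderated log2 CPM values. The deposited log2 CPM was tried once in place of counts. No source used here states its prior count, or whether counting used the strand.

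The gene table held 55774 lines, of which 287 repeats were left out. Fits used the rounded counts in R 4.3.3, with edgeR 4.0.16 (filterByExpr, TMM scaling, 1 quasi-likelihood fit of 12 libraries in 4 groups, common biological coefficient of variation 0.238). Adjusted p-values are Benjamini-Hochberg values over 19890 genes, with a threshold of 0.05, and intervals are at 95%. The script was tested on simulated data. CPM values are TMM-scaled, and log2 CPM relative to markers uses a prior count of 2. TPM was taken as deposited. Library totals of 23070736 to 31837973 limit the precision of weak genes, and this covers counting error only.

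Groups came from sample titles. The members and lists were chosen with earlier results of these data known. Named genes were all members, up to 3 genes with the smallest p of each pathway list, and the 2 nearest in pattern of each member, clone-named genes left out. The marker lists were principal cell, intercalated cell, proximal tubule, thin limb, thick ascending limb, endothelium, red blood cell, urothelium, adipose tissue and skeletal muscle. Promoters came from RefSeq on GRCm38.p6, 8 for 7 of 10 members, and coding lengths from GENCODE M21 by transcript ID. Transcripts of Slc14a1, Nfat5 and Aqp7 were not analysed here. The alternatives tried were DESeq2 1.42.0, limma 3.58.1 with voom, scaling by RLE or upper quartile, a low-count filter of 5 CPM in 3 libraries or none, the replicate block, terms for the detected-gene class (split at 28000) and for Xist (1 CPM), the libraries of 1 comparison, pooled controls, and leaving out libraries.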

Additional observations from a re-analysis of the deposited data

Results flagged for a closer look

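For 6 members the Pkd1 and Cep120 effects differed by the test of the difference itself, with values on the log2 scale. The difference was 2.66 for Aqp2, 1.72 for Aqp3, 2.76 for Aqp4, 1.73 for Avpr2, 1.94 for Slc14a2 and -1.69 for Aqp11. The largest adjusted p over the 23 alternatives was 0.0881 for Aqp2, and between 0.00281 and 0.0173 for the other 5. Within the Pkd1 line Xist and the KO label cannot be told apart for any of them.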

How the results depend on the processing

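The number of members called was 0 for Cep120, 8 for Pkd1, 6 for the difference and 0 between the controls. Over the fits that leave out 1 library each it was 0, 8 to 9, 5 to 7 and 0. Aqp3, Aqp4, Aqp11, Avpr2 and Slc14a2 were called for Pkd1 in all 25 alternatives and for the difference in all 23. With no filter on low counts 2 members, Aqp1 and Aqp4, were called for Cep120 (0.816% of genes). With Xist presence as a term 5 were called for Pkd1, where 10.1% of genes were, and Aqp1, Aqp2 and Aqp7 were lost. Slc14a1 was gained for Pkd1 with no filter, voom, pooled controls, or without Pkd1 KO 3. Changes of sign occurred only in values not called: with Xist presence as a term, Slc14a1 for Cep120 (0.031) and Nfat5 for Pkd1 (0.059), Nfat5 for Pkd1 without both replicate 3 controls (0.020), and Aqp2 for Cep120 without Cep120 KO 3 (0.20, with a range of -0.57 to 0.20 over the libraries left out). The cause was not tested.

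Whether the replicate numbers pair the libraries is not known. Deviations of same-numbered libraries correlated at 0.18, -0.05 and 0.15 in the Cep120 line and at -0.10, -0.04 and -0.14 in the Pkd1 line. Those of libraries with different numbers correlated at -0.20 to 0.11 and at -0.05 to 0.13. So few values per line cannot decide it. With the replicate block 0, 8, 5 and 0 members were called, and the call lost was the difference of Aqp2 (2.73, adjusted p = 0.0652). Aqp7 and Slc14a1 had the lowest counts of the members.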
